A study of Arabidopsis thaliana with 53 samples.

Results

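A set of 10 genes of jasmonate synthesis and vegetative storage was followed through mRNA-seq libraries of 53 single Arabidopsis rosettes. The genes were taken by name, with no measured value in the rule, and make up 10 of the 27501 genes in the count table: the lipoxygenases LOX2 (AT3G45140), LOX3 (AT1G17420) and LOX4 (AT1G72520), the allene oxide synthase AOS (AT5G42650), the allene oxide cyclases AOC1 (AT3G25760) and AOC2 (AT3G25770), the reductase OPR3 (AT2G06050), the methyltransferase JMT (AT1G19640) and the vegetative storage proteins VSP1 (AT5G24780) and VSP2 (AT5G24770). All 10 passed the filter on low counts. Each was first described by how far it varied from plant to plant and then by how it differed between the groups of plants.

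The plants descend from Col-0 seeds germinated on medium with 160 µM etoposide, an inhibitor of topoisomerase II that leaves double-strand breaks, or with its solvent DMSO. The treated generation is called M1, and leaves came from its selfed descendants, which were 32 days old, so no sampled plant was itself exposed. The groups were 6 plants of a brassinosteroid-like (BR-like) dwarf, against 4 relatives of normal stature. There were 6 plants of a short-internode dwarf and 4 normal relatives, and 6 plants of a virescent line (greening late, with adults close to normal) and 4 normal relatives. The variegated line gave 1 white plant, 3 green plants with variegated progeny and 10 green plants without. The controls were 9 plants of 3 DMSO lines. All of these groups share the Col-0 background. The BR-like dwarf carries an inversion on chromosome 2 and the variegated line segregates a deletion in IMMUTANS. The short-internode dwarf plants whose genomes the study sequenced share another inversion, a deletion and an insertion. The study found no structural variant in virescent plants. In the 3 lines with relatives, phenotype and M2 family cannot be told apart, since 2 families gave the phenotypic plants and a different family gave the relatives. The labels give M3 for the etoposide descendants and M2 for the DMSO plants, while the study's methods call the DMSO plants M3 and its supplement lists both. If the labels hold, generation and treatment cannot be told apart either. A list of the plants in the study's supplement enters virescent plant 1 as a relative. Its label was kept here. Each library is 1 plant, and the p-values below measure the spread between plants of these families.

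In Arabidopsis, jasmonates are made from linolenic acid of plastid membranes. Lipoxygenases oxidise it, AOS and then a cyclase turn the product into OPDA, OPR3 reduces OPDA in the peroxisome, and beta-oxidation yields jasmonic acid. JMT methylates jasmonic acid, while its isoleucine conjugate binds the receptor COI1 and frees MYC2 and related transcription factors from JAZ repressors. Wounding and chewing insects induce the pathway, and most synthesis genes respond in turn to the hormone. VSP1 and VSP2 encode acid phosphatases that accumulate in leaves and flowers, and they are among the best known jasmonate response genes.

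The bases upstream of 2 pairs of members are printed because the pairs behaved differently from each other across plants. LOX3 and LOX4 were high in the same few plants, and VSP1 and VSP2 varied together but largely apart from most of the synthesis genes. Each run is the 250 bases before the annotated start, read on the gene's own strand from the RefSeq annotation of TAIR10.1. The 4 lie at chr1:5977073-5977322 (plus strand), chr1:27308263-27308512 (plus), chr5:8509202-8509451 (minus) and chr5:8502225-8502474 (minus). Capitals mark, on either strand, the G-box CACGTG known to be bound by MYC2, its variant AACGTG, and the further variant written CATGTG.
LOX3: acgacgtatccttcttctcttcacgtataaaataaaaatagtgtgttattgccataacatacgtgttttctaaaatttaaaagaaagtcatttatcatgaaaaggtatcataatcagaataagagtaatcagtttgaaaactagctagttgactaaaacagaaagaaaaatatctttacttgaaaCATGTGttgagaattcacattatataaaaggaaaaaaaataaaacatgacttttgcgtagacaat
LOX4: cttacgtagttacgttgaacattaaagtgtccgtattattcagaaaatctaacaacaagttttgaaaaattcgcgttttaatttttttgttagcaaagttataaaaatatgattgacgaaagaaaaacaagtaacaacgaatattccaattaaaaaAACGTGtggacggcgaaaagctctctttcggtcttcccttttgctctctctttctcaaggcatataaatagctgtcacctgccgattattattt
VSP1: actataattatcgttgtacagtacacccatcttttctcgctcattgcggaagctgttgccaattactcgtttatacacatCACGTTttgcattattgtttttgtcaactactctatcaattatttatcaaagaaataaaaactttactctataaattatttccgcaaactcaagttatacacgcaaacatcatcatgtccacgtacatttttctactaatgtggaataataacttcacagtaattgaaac
VSP2: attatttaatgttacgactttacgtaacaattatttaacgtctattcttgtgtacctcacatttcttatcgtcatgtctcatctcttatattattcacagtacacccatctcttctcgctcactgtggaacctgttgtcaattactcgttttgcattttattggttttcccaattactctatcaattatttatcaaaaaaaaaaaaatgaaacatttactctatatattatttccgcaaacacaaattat

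The LOX3 window holds CATGTG, with its first base 65 bases before the start, and the LOX4 window holds AACGTG at 94 bases. In VSP1 the reverse complement CACGTT stands at 170 bases, and these letters are not in the VSP2 window. Over the 10 members, CACGTG was found in 1 window (AOS, 6 bases before the start), AACGTG in 3 (LOX4, AOC1, VSP1) and CATGTG in 2 (LOX2, LOX3). At least 1 of the 3 was in 6 of the 10. Among 27443 windows of the same length, the shares were 6.49% for CACGTG, 7.54% for AACGTG, 11.1% for CATGTG and 22.8% for any of them. Each is a match of 6 letters and not a measured binding site.

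Several members are near copies of each other. VSP1 and VSP2 sit on the minus strand of chromosome 5, 5365 bases apart, and their longest transcripts share 89.4% of 1280 aligned bases, though just 5.59% of the 31-base words of VSP1 occur in VSP2. AOC1 and AOC2 are neighbours on chromosome 3, 1330 bases apart with 84.7% identity, and 2.5% of the 31-base words of AOC1 occur in AOC2. The split of counts within these pairs rests on how Salmon assigned reads that fit both, and is uncertain to that extent. LOX3 and LOX4, both on chromosome 1, share no 31-base word.

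Counts were ample for 9 of the 10 genes, whereas VSP1 had 3 counts or fewer in 3 of the 53 plants. The libraries held between 29739361 and 116654254 assigned counts, with a median of 47326147. The deepest was a DMSO plant. Leaf markers (RBCS1A, RCA, LHB1B2, CA1, GOX1) were expressed in every library, with a summed level between 6987 CPM (counts scaled to library size with TMM factors) in the white plant and 54190 CPM in a virescent plant. The summed floral markers (AG, AP1, AP3, PI, SEP3, SEP1) lay between 1.198 and 45.2 CPM. PI was at 0 in all short-internode relatives. In leaf RNA, fewer cells that express a gene and less RNA per cell cannot be told apart.

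Levels differ by orders of magnitude within the set. On a scale of CPM per kilobase of the longest transcript, the medians over the 9 DMSO plants were 1025 for LOX2, 383 for AOC2, 202 for AOS, 72.7 for OPR3 and 45.2 for AOC1. The other 5 members were low, at 11.6 for VSP2, 10.6 for LOX3, 9.62 for LOX4, 4.76 for VSP1 and 4.46 for JMT. The ranges of VSP2, LOX3 and LOX4 over DMSO plants overlap, and so do those of VSP1 and JMT. LOX2 was therefore the leading lipoxygenase transcript and AOC2 the leading cyclase of the 2. The share of AOC1 in the summed CPM of AOC1 and AOC2 had a median of 9.64% over the 53 plants, from 0.265% to 49.4%. VSP1 contributed a median of 17.7% to the sum of VSP1 and VSP2, from 0 to 37.7%. LOX4 exceeded LOX3 in 8 of the 53 plants.

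**Figure D1:**
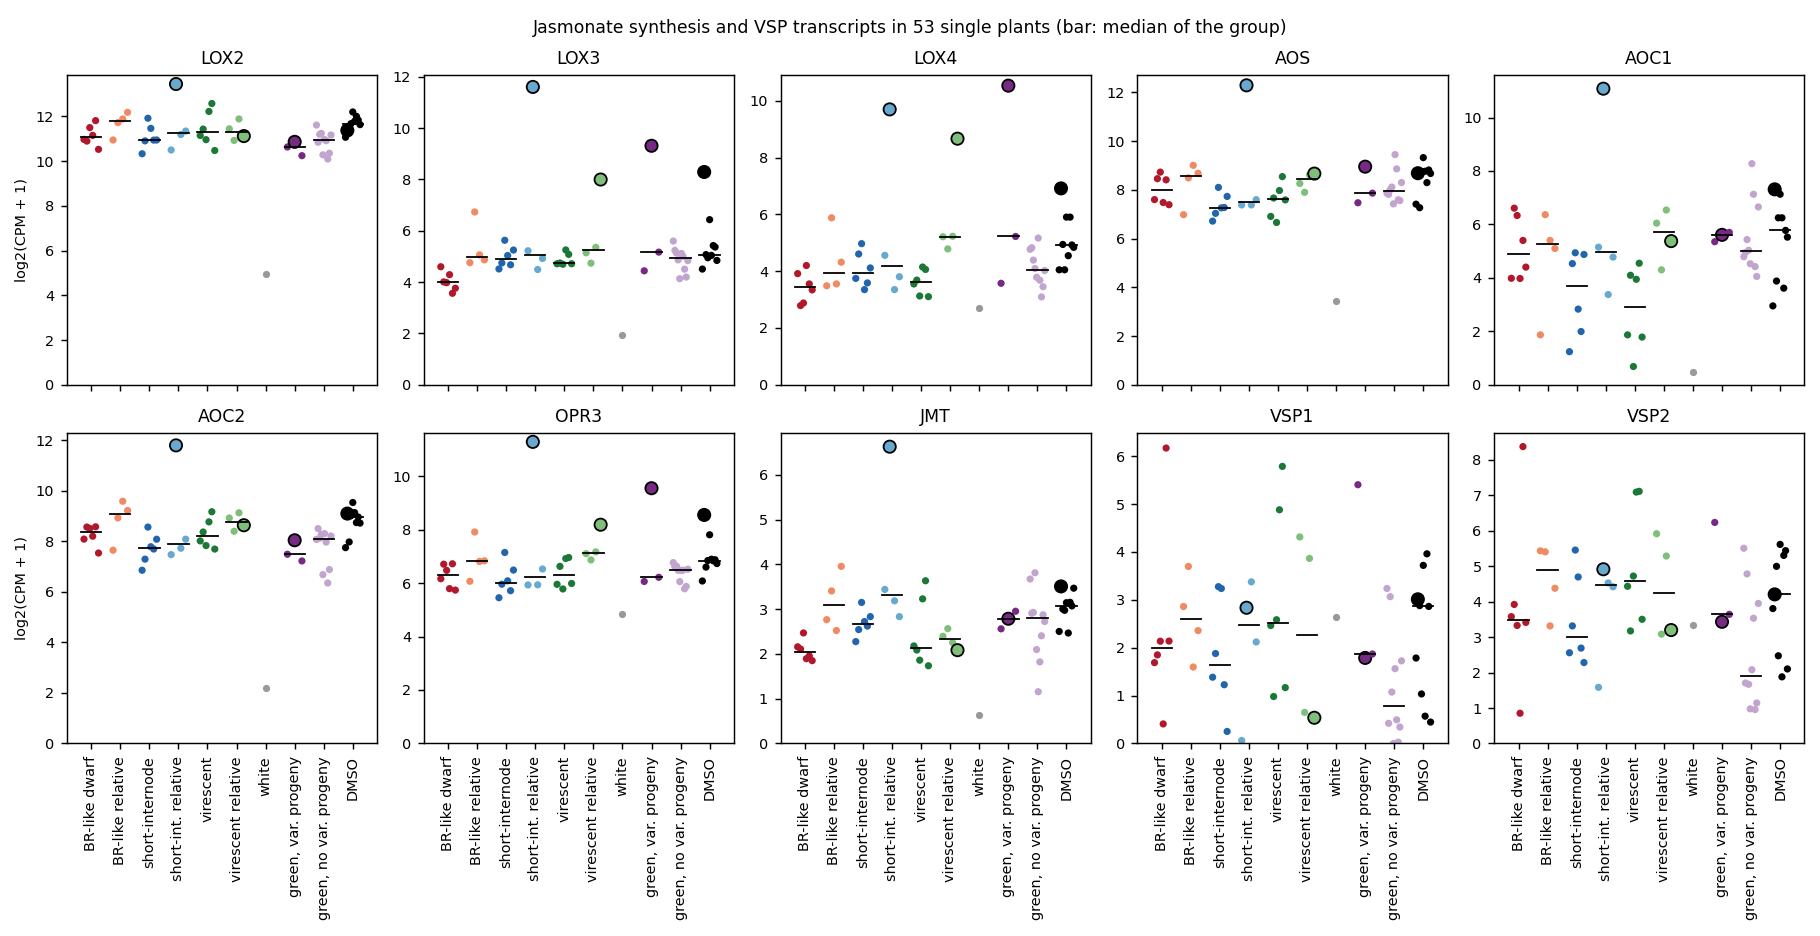
Level of each of the 10 genes in each of the 53 plants, as log2(CPM + 1) on the vertical axis, by group on the horizontal axis. Each point is 1 plant, each bar the group median, and the large outlined points are the 4 plants with the highest LOX3, in which LOX3 lay between 254.8 and 3121 CPM.

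Plants of 1 group differed widely in these genes. The spread was measured as the SD of log2(CPM + 1) around the group means over the 52 plants of the 9 replicated groups, and set beside the same measure for all 20392 genes that passed the filter, whose median was 0.28. It was 1.66 for AOC1, 1.65 for VSP2 and 1.54 for VSP1 (percentiles 99.9, 99.8 and 99.8). LOX4 followed with 1.38 and LOX3 with 1.29 (percentiles 99.5 and 99.3). The remaining synthesis genes spread less, with 0.97 for OPR3, 0.89 for AOS, 0.80 for AOC2, 0.71 for JMT and 0.59 for LOX2. LOX2, the most abundant member, was the one gene of the 10 below the 90th percentile, at 88.1.

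The spread was also taken without the 4 identified libraries that the authors set aside and without plant 2 of the green plants with variegated progeny. These 5 include the 4 plants with the highest LOX3, so a smaller spread of LOX3 follows from the choice, and plants extreme in VSP1 or VSP2 were not left out in the same way. The SD was then 0.49 for LOX3 (percentile 86.4), 0.68 for LOX4 (94.1) and 0.48 for OPR3 (85.5). In the same 47 plants it was 1.68 for VSP2, 1.53 for VSP1 and 1.45 for AOC1, against a median of 0.25 over all genes.

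**Figure D2:**
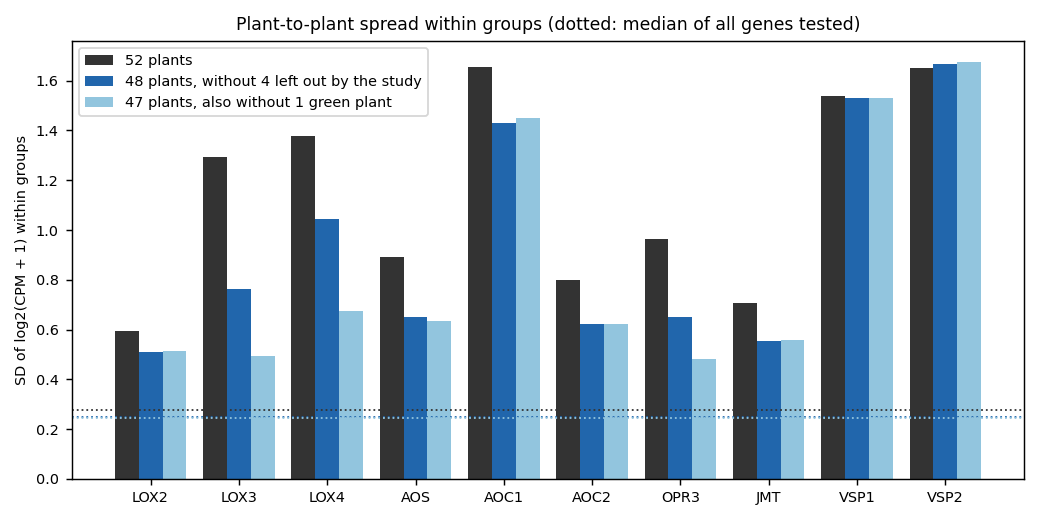
Spread between plants within groups for the 10 genes, as the SD of log2(CPM + 1) around group means, over 52 plants (black), without the 4 identified libraries set aside by the authors (48 plants, dark blue) and also without plant 2 of the green plants with variegated progeny (47 plants, light blue), with dotted lines at the median of all genes. The plants left out include those highest in LOX3, whose SD was 0.49 over 47 plants and 1.29 over 52, while that of VSP2 was 1.68 over 47 plants and 1.65 over 52.

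The extreme plants are best described singly. LOX3 reached 3121 CPM in short-internode relative 2, 635.7 CPM in plant 2 of the green plants with variegated progeny, 312.6 CPM in DMSO plant 2 and 254.8 CPM in virescent relative 4. In the other 48 green plants it ranged from 10.8 to 105.5 CPM around a median of 28.2. All 4 stand above that range because they were chosen as the highest. Of the 4, 3 were identified as libraries that the authors left out of their tests. For the variegated-line plant this is not known here. These plants were picked out by their LOX3 level, so what follows describes them and tests nothing. They come from 4 different groups. The other plants of those groups are among the 48, so they lie within the range just given by definition.

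Short-internode relative 2 had the highest level of the 53 plants for LOX2, LOX3, AOS, AOC1, AOC2, OPR3 and JMT, and the second highest for LOX4. AOS stood at 5021 CPM there, against 165.8, 165.9 and 192.8 CPM in the other 3 relatives. AOC1 stood at 2163 CPM, against 9.37, 26.4 and 34.5 CPM. JMT, the methyltransferase, was at 98.0 CPM, against 6.13, 8.10 and 9.86 CPM. Set over the median of the 2 relatives that the authors kept, the levels were 123-fold for LOX3, 121-fold for AOC1, 74.7-fold for LOX4, 32.9-fold for OPR3, 28-fold for AOS and 4.53-fold for LOX2. VSP2 was at 29.1 CPM, against 1.99, 20.4 and 22.1 CPM in the other relatives, and ranked 15 among the 53 plants. The synthesis genes of the set were high together in this plant, while VSP1 and VSP2 lay inside the range of the other plants. Its summed leaf markers were low, at 8540 CPM, and its floral markers were at 6.57 CPM.

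The second plant showed a narrower pattern. In plant 2 of the green plants with variegated progeny, LOX4 reached 1479 CPM, the highest of all plants, against 10.9 and 36.3 CPM in the other 2 plants of its group. LOX3 was at 635.7 CPM, against 20.7 and 34.99 CPM, and OPR3 at 746.3 CPM, against 65.7 and 73.3 CPM. LOX2, at 1860 CPM, and AOC2, at 262.9 CPM, were within the range of the other green plants of the line. VSP2 was at 9.78 CPM, against 11.5 and 74.2 CPM. Its summed floral markers, at 45.2 CPM, were the highest of the 53 plants, and its leaf markers summed to 18422 CPM.

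In DMSO plant 2 and virescent relative 4 the excess was smaller. Over the median of the other plants of the group, LOX3 was 9.68-fold, LOX4 4.2-fold, OPR3 3.29-fold and AOC1 3.2-fold higher in the DMSO plant. In virescent relative 4, LOX4 was 11.2-fold, LOX3 7.43-fold and OPR3 2.13-fold higher. LOX2 stood at 2648 CPM in the first and 2224 CPM in the second, inside the range of the other plants. VSP2 ranked 23 and 37 among the 53. The leaf markers summed to 16853 and 22308 CPM in these plants and to between 14831 and 54190 CPM in the other 48 green plants, and the part of tissue composition in these levels was not tested.

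Short-internode relative 2 was above both relatives that the authors kept, and over 2-fold their median, in 8 of 10 members, and 19.1% of all genes met the same rule there. The number above every other plant of the group and over 2-fold its median was 4 of 10 in plant 2 of the green plants with variegated progeny (12% of all genes), 4 of 10 in DMSO plant 2 (6.27%) and 3 of 10 in virescent relative 4 (5.54%). Listed genes of the pathway outside the 10 met this rule in uneven numbers. Of 10 breakdown genes 9 did so in short-internode relative 2, 5 in the variegated-line plant, 5 in DMSO plant 2 and 2 in virescent relative 4. Of 16 other synthesis genes the numbers were 7, 2, 3 and 2 in the same order of plants, of 7 response genes 6, 2, 1 and 0, and of 4 signalling genes 1, 1, 0 and 1. In short-internode relative 2, 5 of the 16 synthesis genes lay below both kept relatives, as did 44.0% of all genes. Among the 5 were the desaturase genes FAD3 (0.115-fold) and FAD8 (0.192-fold). AOC3, another cyclase, was at 745.7 CPM in short-internode relative 2, 72.5 CPM in the variegated-line plant, 39.2 CPM in DMSO plant 2 and 36.4 CPM in virescent relative 4, with a median of 1.74 CPM over all 53 plants. CYP94B3, which hydroxylates the active conjugate and so begins its breakdown, was at 1623, 258.5, 42.7 and 53.9 CPM in the same order of plants, with a median of 0.976 CPM over all 53. MYC2 was high in 3 of the 4, with 668.3 CPM in short-internode relative 2, 715.4 CPM in the variegated-line plant and 556.5 CPM in virescent relative 4, and stood at 94.2 CPM in DMSO plant 2, close to the overall median of 93.6 CPM. JAR1, which makes the isoleucine conjugate, reached 1746 CPM in short-internode relative 2 alone and was at most 135.9 CPM elsewhere. The fourth identified library that the authors left out, short-internode relative 1, had 36.3 CPM of LOX3, inside the range of the other plants. Set against the 2 kept relatives it met the rule in 1 of 10 members (LOX4, 2.03-fold) and 6 of 10 breakdown genes, beside 8.96% of all genes, with AOC3 at 7.77-fold and CYP94B3 at 7.45-fold.

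The storage protein genes varied in other plants. VSP2 ranged 410-fold over the 53 plants, and both ends lay in the same M2 family of the BR-like dwarf. Plant 5 of the dwarf had 329.7 CPM and plant 4 had 0.805 CPM, while the other 4 dwarf plants had 10.9, 14.1, 9.04 and 9.66 CPM. The next highest levels were 136.9 and 135.0 CPM in virescent plants 5 and 4, also from 1 family, and 74.2 CPM in plant 1 of the green plants with variegated progeny. VSP1 followed, at 71.0 CPM in BR-like dwarf plant 5, against 0.327 CPM in plant 4 and between 2.22 and 3.40 CPM in the other 4. In the virescent plants VSP1 had 4.52, 0.973, 5.00, 28.5, 54.2 and 1.25 CPM. No count of VSP1 was found in 1 plant, plant 5 of the green plants without variegated progeny, where 3 counts would be the limit that a count of 0 allows.

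The plants richest in VSP2 were not those richest in LOX3. BR-like dwarf plant 5 had the lowest LOX3 of all green plants, at 10.8 CPM, and its LOX2 was at 3589 CPM. Virescent plants 4 and 5 had 37.2 and 32.9 CPM of LOX3, and LOX2 at 4773 and 6102 CPM. That of plant 5 was the second highest of all plants.

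**Figure D3:**
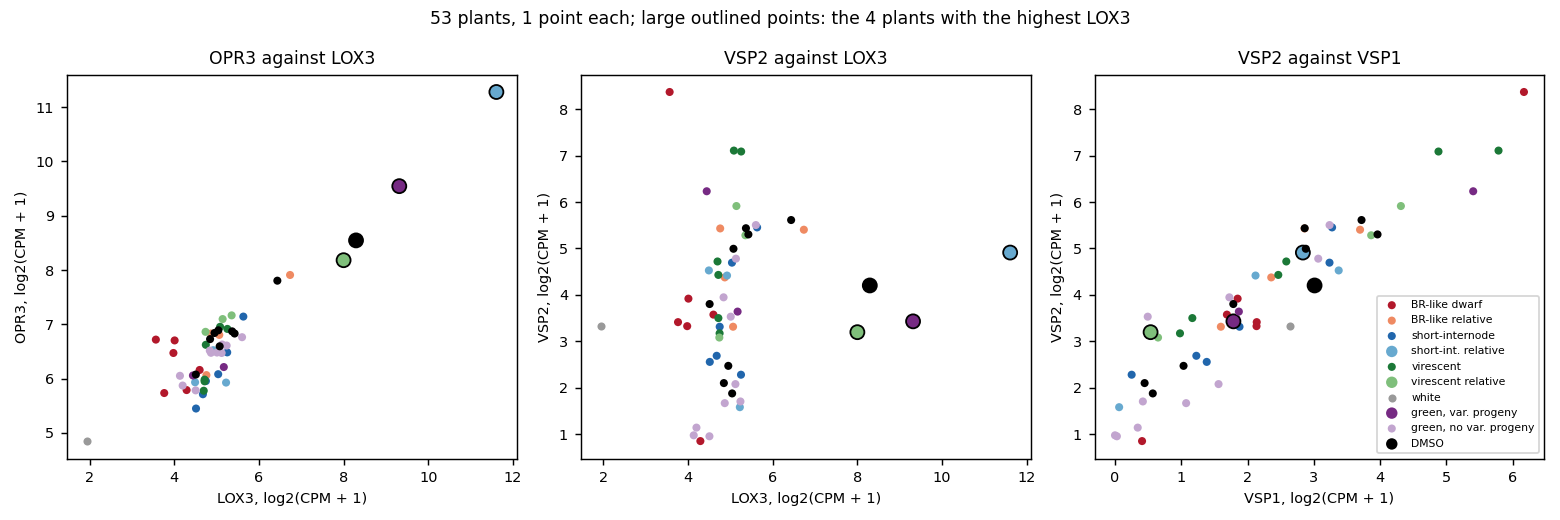
Levels of pairs of genes in each plant, both axes as log2(CPM + 1), with 1 point for each plant coloured by group and the 4 plants with the highest LOX3 outlined. LOX3 and OPR3 rise together (r = 0.935 after group means were removed) and so do VSP1 and VSP2 (r = 0.94), while LOX3 and VSP2 had r = 0.10.

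Correlations over the 52 plants, after the group mean was taken from each value, describe a similar division, which was incomplete. All 45 pairs were computed, from log2(CPM + 1) of the same libraries, with permutation p-values (two-sided, 100000 resamples) adjusted over the 45. The smallest p the resamples can give is 1e-05. The values of r without the 2 farthest plants kept group means that include those plants. Other plants of their groups keep deviations that the 2 plants caused, so these values do not remove the influence of the 2. VSP1 and VSP2 had r = 0.94 and rho = 0.93 (p = 1e-05 for both, adjusted p = 2e-05 and 3e-05), and r = 0.92 without the 2 plants farthest from the median of VSP1. LOX3 had r = 0.93 and rho = 0.84 with LOX4 (p = 1e-05 for both, adjusted p = 2e-05 and 3e-05), and r = 0.89 without the 2 farthest plants. With OPR3, LOX3 had r = 0.935 and rho = 0.83 (p = 1e-05 for both, adjusted p = 2e-05 and 3e-05), and 0.87 without them. LOX2 was closest to AOC2 among the members, with r = 0.88 and rho = 0.85 (p = 1e-05 for both, adjusted p = 2e-05 and 3e-05), and 0.83 without the 2 farthest plants.

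Across the boundary between the 2 functions the median r was lower. The 21 pairs within LOX2, LOX3, LOX4, AOS, AOC1, AOC2 and OPR3 had r from 0.47 to 0.935 with a median of 0.72, and the 14 pairs of 1 of these with VSP1 or VSP2 had r from 0.03 to 0.57 with a median of 0.19. These ranges overlap. LOX2 had r = 0.57 with both VSP1 and VSP2, above its r of 0.50 with LOX3 and 0.47 with LOX4. JMT lay between, at 0.29 to 0.68. LOX3 and VSP2 had r = 0.10 and rho = 0.24 (permutation p = 0.47 and 0.089, adjusted p = 0.5 and 0.11), and r = 0.11 without the 2 farthest plants. LOX2 had the highest r with the storage genes, with r = 0.57 and rho = 0.56 with VSP2 (permutation p = 1e-05 for both, adjusted p = 2e-05 and 5.6e-05), and r = 0.57 without the 2 farthest plants. AOC2 was weakly related to VSP2, with r = 0.32 and rho = 0.35 (permutation p = 0.02 and 0.012, adjusted p = 0.029 and 0.017), and r = 0.295 without the 2 farthest plants. Group means were taken anew in the 47 plants without the libraries set aside and the variegated-line plant 2. There the median r was 0.65 within synthesis and 0.33 between synthesis and storage genes. LOX3 then had r = 0.78 with LOX4, 0.75 with OPR3 and 0.34 with VSP2, and OPR3 had r = 0.489 with VSP2. In the same plants LOX2 had r = 0.655 with VSP1 and 0.50 with LOX3.

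The genes most like 3 of the members were listed by the same r over the 52 plants. For LOX2 these were CORI3, a jasmonate-induced cystine lyase (0.92), AOC2 (0.88), the arginase ARGAH2 (0.84), AT1G62660 (0.84) and the dehydroascorbate reductase DHAR1 (0.83). For LOX3 they were AT5G56980 (0.95), AOC3 (0.94), OPR3 (0.935), LOX4 (0.93) and GA2OX6, a gibberellin oxidase (0.93). In the 47 plants the LOX3 list opened instead with JAZ8 (0.86), RRTF1 (0.83) and JAZ5 (0.80), where JAZ8 and JAZ5 encode repressors of the pathway. For VSP2 they were VSP1 (0.94), SCPL9 (0.78), the beta-amylase BAM5 (0.75), AT1G14250 (0.74) and AT4G17470 (0.71). The 3 lists share no gene.

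The question across groups was whether the phenotypic plants of each line differed from their relatives and from DMSO controls. Differences are log2 fold changes from edgeR (quasi-likelihood fits, p-values adjusted over all genes after Benjamini and Hochberg), and a gene is said to have risen or fallen where the adjusted p was under 0.01 and the change over 1 on the log2 scale. The contrasts of the 3 lines with relatives used the libraries that the authors used. Those of the variegated line, for which no such set is known, used all its plants and the same DMSO plants. Contrasts with DMSO share the same 8 control plants, so they are not independent of each other. Over all 53 plants, 7 of the 10 members differed among the 9 replicated groups (adjusted p from 4.11e-07 for LOX4 to 0.00113 for AOC2), where 43.6% of all genes did. LOX2 (adjusted p = 0.0201), VSP2 (0.184) and VSP1 (0.229) did not pass. Without short-internode relative 2 the number was 4 of 10, beside 45.6% of all genes. It was also 4 without the 4 identified libraries set aside by the authors (42.8% of all genes), and 3 when plant 2 of the green plants with variegated progeny was left out as well (40.8%).

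In the BR-like dwarf, JMT was low. It had 2.61 CPM in the lowest of the 6 dwarf plants, a median of 3.10 and 4.54 CPM in the highest, against 5.80, 9.61, 4.75 and 14.5 CPM in the 4 relatives, and the groups did not overlap. The mean was 3.25 ± 0.712 CPM in the dwarf and 8.67 ± 4.43 CPM in the relatives (SD, n = 6 and 4), a log2 fold change of -1.41 ± 0.28 (SE) with an edgeR adjusted p of 0.0166, which missed the threshold. Against DMSO plants, which had 7.04 ± 1.80 CPM (SD, n = 8), JMT fell by 1.11 ± 0.24 on the log2 scale (edgeR adjusted p = 0.00597). The adjusted p missed 0.01 when any of BR-like dwarf plants 1, 2, 4, 5 and 6 or DMSO plants 4, 5, 7, 8 and 9 was left out (change between -1.22 and -1.01), and in the fit over all 53 plants (adjusted p = 0.0603).

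LOX3 was the other gene whose dwarf and relative levels did not overlap. The lowest, median and highest dwarf plants had 10.8, 14.9 and 23.2 CPM, against 26.1, 105.5, 32.4 and 28.2 CPM in the relatives. The means were 15.8 ± 4.47 CPM in the dwarf and 48.1 ± 38.4 CPM in the relatives (SD, n = 6 and 4), with a log2 fold change of -1.61 ± 0.39 (edgeR adjusted p = 0.0429). Without relative 2 the change was -0.88 (edgeR adjusted p = 0.182). Against DMSO, whose mean was 39.0 ± 19.9 CPM (SD, n = 8), the change was -1.30 ± 0.34 (edgeR adjusted p = 0.0176). LOX4 had 10.6 ± 4.47 CPM in the dwarf and 32.2 ± 17.4 CPM in DMSO plants (SD, n = 6 and 8), with a change of -1.61 ± 0.43 (edgeR adjusted p = 0.0188).

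No member passed in the dwarf against its relatives, where 0.0871% of all genes did. An unadjusted p under 0.05 was found for 4 of 10 (LOX3, LOX4, OPR3, JMT, all lower), beside 17.6% of all genes, and groups that did not overlap for 2 of 10, beside 3.96%. Against DMSO, 1 of 10 passed, beside 2.67% of all genes, and 5 of 10 had an unadjusted p under 0.05, all lower, beside 30.3%. The median log2 fold change of the 10 was -0.64 against relatives and -0.55 against DMSO, with -0.02 over all genes in both. Against relatives AOC1 was the synthesis gene that stood apart from this, at 44.5 ± 35.5 CPM in the dwarf and 39.7 ± 32.4 CPM in the relatives (SD, n = 6 and 4). Its log2 fold change was 0.17 ± 0.84 against relatives and -0.24 ± 0.70 against DMSO. VSP2 had 62.4 ± 131.0 CPM in the dwarf and 28.1 ± 16.4 CPM in the relatives, a mean that rests on plant 5 (log2 fold change 1.16 ± 1.22, edgeR adjusted p = 0.68). The relatives set against DMSO gave 0 members called, beside 0% of all genes, and 0 members with an unadjusted p under 0.05, beside 8.06%.

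**Figure D4:**
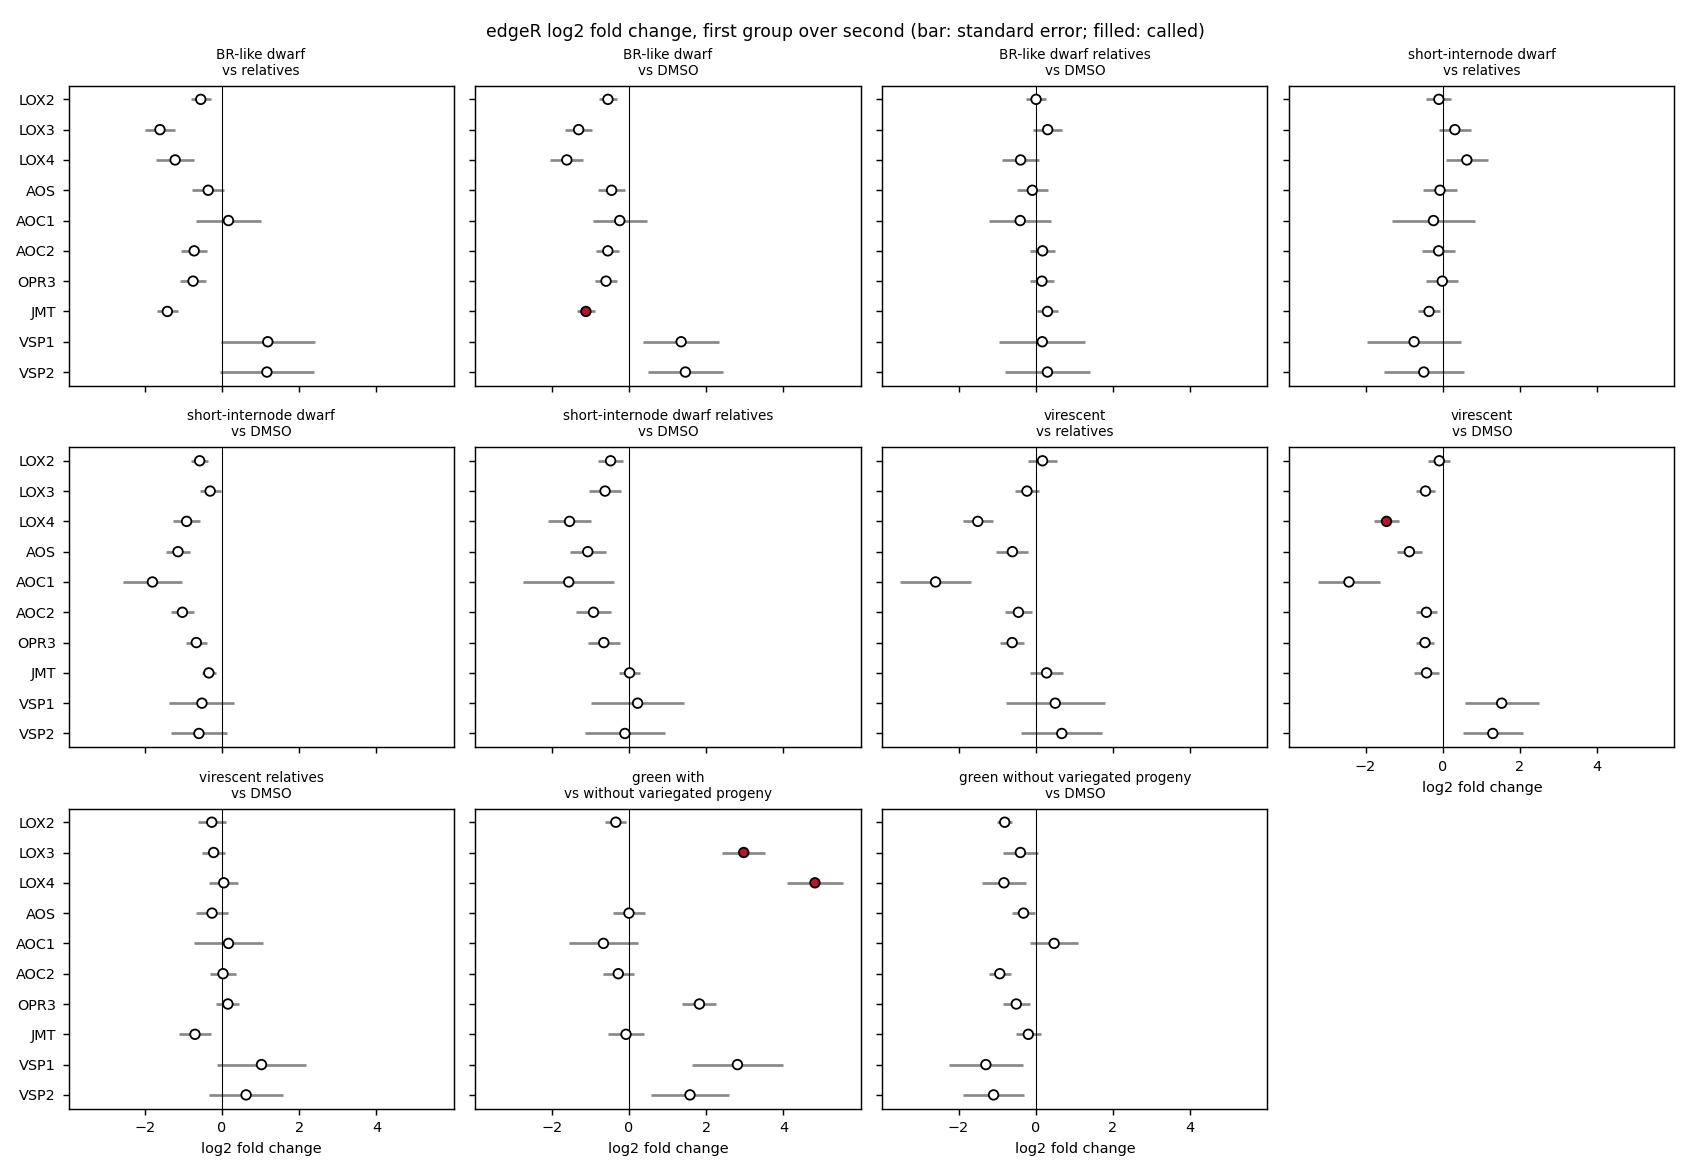
Log2 fold changes of the 10 genes in the contrasts of the 4 lines, with bars of 1 SE from the edgeR fits, 1 panel for each contrast and filled points for genes that passed. JMT in the BR-like dwarf against DMSO, LOX4 in the virescent plants against DMSO, and LOX3 and LOX4 in the green plants with against those without variegated progeny are the 4 values that passed the threshold.

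In the short-internode dwarf every member lay below DMSO, though none passed. AOS had 104.3 CPM in the lowest dwarf plant, a median of 153.3 and 274.0 CPM in the highest, and its mean was 171.1 ± 61.6 CPM in the dwarf and 375.2 ± 159.9 CPM in DMSO plants (SD, n = 6 and 8). The log2 fold change was -1.14 ± 0.30 (edgeR adjusted p = 0.0206), and the ranges overlapped. AOC2 had 224.3 ± 92.5 CPM in the dwarf and 454.5 ± 169.7 CPM in DMSO plants, a change of -1.03 ± 0.29 (edgeR adjusted p = 0.026). Of the 10, 6 had an unadjusted p under 0.05 (LOX2, LOX4, AOS, AOC1, AOC2, OPR3), beside 33.8% of all genes, and 0 passed, beside 1.56%. The median change of the 10 was -0.63, with -0.02 over all genes.

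The 2 relatives that the authors kept were also below DMSO in 8 of the 10 members. LOX2 had 2304 ± 908.8 CPM in the dwarf and 2466 ± 187.7 CPM in the relatives (SD, n = 6 and 2), with a change of -0.10 ± 0.32 (edgeR adjusted p = 0.963). Against relatives, 0 of 10 passed (0.0260% of all genes) and 0 had an unadjusted p under 0.05 (9.11%). With short-internode relatives 1 and 2 and DMSO plant 2 included, the LOX3 change against relatives turned to -4.69, against 0.31 without them, with 3121 CPM of LOX3 in relative 2. The relatives themselves against DMSO gave 0 of 10 called, beside 0% of all genes. An unadjusted p under 0.05 was found for LOX4 and AOS, 2 of 10 and both lower, beside 18.3%. LOX4 alone did not overlap, with 9.20 and 13.0 CPM in the 2 relatives and 15.5 CPM in the lowest DMSO plant, where 13.2% of all genes did not overlap.

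The virescent plants were low in LOX4. It had 7.58 CPM in the lowest of the 6, a median of 11.3 and 16.7 CPM in the highest, against 36.04, 26.5 and 36.5 CPM in the 3 relatives that the authors kept and 404.7 CPM in relative 4, and the groups did not overlap. The means were 11.7 ± 3.86 CPM in virescent plants and 33.01 ± 5.61 CPM in the 3 relatives (SD), with a log2 fold change of -1.504 ± 0.381 (edgeR adjusted p = 0.0142). Against DMSO plants, with 32.2 ± 17.4 CPM (SD, n = 8), LOX4 fell by 1.46 ± 0.32 on the log2 scale (edgeR adjusted p = 0.00509). The adjusted p missed 0.01 without any of virescent plants 1, 2, 3 and 6 (change between -1.46 and -1.36), plant 1 being the one listed as a relative elsewhere. It was 0.0446 with DMSO plant 2 and virescent relative 4 in the fit. AOC1 was also low, at 9.77 ± 9.05 CPM in virescent plants, 58.6 ± 37.1 CPM in the relatives and 52.4 ± 44.5 CPM in DMSO plants (SD, n = 6, 3 and 8). Its change of -2.60 ± 0.92 against relatives (edgeR adjusted p = 0.0615) and -2.43 ± 0.80 against DMSO (edgeR adjusted p = 0.0423) did not pass.

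The other steps of the pathway did not pass in these plants. LOX2 had 3219 ± 1821 CPM in virescent plants and 2837 ± 919.8 CPM in the relatives (SD, n = 6 and 3), and LOX3 had 28.6 ± 5.20 and 33.3 ± 7.16 CPM, with changes of 0.17 ± 0.38 and -0.23 ± 0.31. Against relatives 0 of 10 passed, beside 2.95% of all genes, and 2 of 10 (LOX4, AOC1) had an unadjusted p under 0.05, beside 33.1%. The count without overlap was 1 of 10, beside 27.9%. Against DMSO 1 of 10 passed, beside 2.73%, and 3 of 10 (LOX4, AOS, AOC1) had an unadjusted p under 0.05, beside 34.4%. The relatives against DMSO gave 0 of 10 called (0.223% of all genes) and 0 with an unadjusted p under 0.05 (18.9%). None of these shares of members with an unadjusted p under 0.05 exceeded that of all genes.

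In the variegated line, LOX3 and LOX4 passed between green plants with and without variegated progeny, on account of 1 plant. All plants with such progeny come from a single M2 family, and most of those without come from other families. Progeny type and family are therefore largely confounded in this contrast. LOX3 had 20.7, 635.7 and 34.99 CPM in the 3 plants with such progeny, against 16.6 CPM in the lowest, a median of 29.7 and 47.5 CPM in the highest of the 10 without. LOX4 had 10.9, 1479 and 36.3 CPM with, against 7.53, 15.6 and 34.9 CPM without. The log2 fold changes were 2.97 ± 0.56 for LOX3 (edgeR adjusted p = 0.0053) and 4.82 ± 0.73 for LOX4 (edgeR adjusted p = 0.00161). Without plant 2 they were -0.09 for LOX3 and 0.36 for LOX4, and no member passed. The 2 calls of 10 stand beside 0.822% of all genes, and 4 of 10 with an unadjusted p under 0.05 beside 9.59%.

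The mean of LOX2 was lower in the green plants without variegated progeny than in DMSO plants, a difference that did not pass. LOX2 had 1091 CPM in the lowest, a median of 1963 and 3131 CPM in the highest of the 10, against 2143 CPM in the lowest and 4698 CPM in the highest DMSO plant. The means were 1960 ± 629.1 CPM without variegated progeny and 3431 ± 772.2 CPM in DMSO plants (SD, n = 10 and 8), with a change of -0.81 ± 0.19 (edgeR adjusted p = 0.0124), which missed the threshold in size and in p. AOC2 had 238.0 ± 100.3 and 454.5 ± 169.7 CPM in the same groups, a change of -0.93 ± 0.29 (edgeR adjusted p = 0.0372). None of the 10 passed (0.222% of all genes did), and these 2 had an unadjusted p under 0.05 (28.9% of all genes).

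VSP1 and VSP2 passed in no contrast, with standard errors of 0.72 to 1.28 on the log2 scale. Their changes lay between -1.30 and 2.81. Plants of 1 group differed by more than the groups did. The families within groups were tested over all 53 plants, and no member differed between the M2 families or DMSO lines of a group: 0 of 10 passed, beside 7.14% of all genes, and 0 had an unadjusted p under 0.05, beside 33.7%. JMT came closest, with p = 0.0535 (edgeR adjusted p = 0.155). It passed without short-internode relative 2 alone (edgeR adjusted p = 0.00559) and without all of those set aside by the authors (0.00658). The green plants without variegated progeny are given as an example, chosen after their values were seen. JMT had 11.8, 6.51, 6.61 and 13.1 CPM in their first M2 family, 3.28, 1.23, 2.54 and 4.30 CPM in the second, and 6.34 and 5.61 CPM in the third. The first 2 of these families did not overlap.

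Whether the phenotypic plants departed from their relatives by different amounts in different lines was tested in the fit over all 53 plants, in which the libraries set aside by the authors were included. No member passed. For the BR-like dwarf line minus the virescent line, 0 of 10 passed (1.96% of all genes) and 1, JMT, had an unadjusted p under 0.05 (24.6%), with a difference of -1.79 ± 0.74 (edgeR adjusted p = 0.123). For the BR-like dwarf line minus the short-internode line, 0 passed (0.265%) and 5 had an unadjusted p under 0.05 (22.8%). For the virescent line minus the short-internode line, 0 passed (2.53%) and 6 had an unadjusted p under 0.05 (28.1%). The last 2 comparisons both include short-internode relative 2. Without it the AOC1 difference between the BR-like dwarf and short-internode lines was 0.82, against 5.38 with it, and the JMT difference between the virescent and short-internode lines was 0.93, against 2.83.

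Genes of the pathway outside the 10 were listed with earlier results in view. Of 16 other synthesis genes 15 were measured well enough to test, of 10 breakdown genes 9, and all of 4 signalling and 7 response genes. Across the 11 contrasts 2 of these passed. OPCL1, a ligase that activates the OPR3 product for beta-oxidation, rose to 478.2 ± 654.2 CPM in the green plants with variegated progeny, against 80.5 ± 16.8 CPM in those without (SD, n = 3 and 10, log2 fold change 2.57 ± 0.44, edgeR adjusted p = 0.00283), again through plant 2 with 1231 CPM. THI2.1, a thionin induced by jasmonate, fell to 0.0421 ± 0.0405 CPM in virescent plants, against 2.15 ± 2.44 CPM in their relatives (SD, n = 6 and 3, log2 fold change -5.59 ± 1.30, edgeR adjusted p = 0.00864), at very low counts. The 3 relatives in this contrast had a median of 1.06 CPM of THI2.1 and 4.94 CPM in the highest. Virescent relative 4, which the authors left out, had 0 CPM. In the short-internode dwarf against DMSO, where 18.5% of all genes were lower and 15.3% higher at an unadjusted p under 0.05, the 9 breakdown genes had a median change of -2.07 with 5 lower and 1, CYP94C1, higher at that p. The 4 signalling genes had -0.81 with 4 of 4 lower, and the 7 response genes had -1.13 with 4 of 7 lower. The 15 synthesis genes had -0.04 with 4 lower and 1, LOX6, higher. In the BR-like dwarf against relatives, where 8.86% of all genes were lower and 8.73% higher at that p, the breakdown genes had a median change of -1.58 with 4 of 9 lower, and the synthesis genes -0.28 with 5 of 15 lower and 1, ACX5, higher.

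Markers moved with some of these contrasts. The antenna protein gene LHB1B2 rose against DMSO plants by 2.101 on the log2 scale in the BR-like dwarf, 1.83 in the short-internode dwarf and 2.76 in virescent plants (edgeR adjusted p = 0.000136, 0.000355 and 4.85e-06). It was the 1 leaf marker of 5 that passed. In the BR-like dwarf against DMSO the other 4 had negative changes, with GOX1 at -0.73 and RCA at -0.66 (edgeR adjusted p = 0.00414 and 0.0367), and the median of the 5 was -0.66. That median was 0.21 in the short-internode dwarf and -0.19 in virescent plants. The floral gene SEP3 rose to 3.67 ± 1.53 CPM in the BR-like dwarf, against 0.995 ± 0.525 CPM in DMSO plants (SD, n = 6 and 8, edgeR adjusted p = 0.00217). Of the 6 floral markers 4 were tested in this contrast, and SEP3 alone passed. AP3 changed by 3.39 on the log2 scale (edgeR adjusted p = 0.0117), SEP1 by 0.01 and AG by -0.77. Summed leaf markers ranged from 24433 to 33428 CPM in the BR-like dwarf, 25002 to 39575 in the short-internode dwarf and 32980 to 54190 in virescent plants, against 16853 to 29926 CPM in DMSO plants. The part of leaf composition in the differences above was not tested.

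The single white plant of the variegated line was lowest, relative to the green plants, in LOX2, AOS, AOC1 and AOC2. LOX2 stood at 30.1 CPM, against 1091 CPM in the lowest of the 13 green plants of the line, a median of 1860 and 3131 CPM in the highest. AOC2 stood at 3.63 CPM, against 80.8, 262.9 and 362.6 CPM. AOC1 had 0.406 CPM, against 15.6, 39.9 and 308.4 CPM, and AOS 9.78 CPM, against 171.1, 232.5 and 698.3 CPM. Set against the green median, AOC1 was 98.1-fold, AOC2 72.5-fold, LOX2 61.9-fold and AOS 23.8-fold lower in the white plant. It was below all 13 green plants in each of these.

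The other synthesis genes and JMT were lower by smaller folds. LOX3 had 2.86 CPM in the white plant, against 16.6 CPM in the lowest green plant, 10.9-fold under the green median. JMT had 0.557 CPM, against 1.23 CPM in the lowest, 10.6-fold under it. OPR3, the peroxisomal reductase, was at 27.9 CPM, against 54.1, 88.1 and 746.3 CPM, and LOX4 at 5.49 CPM, against 7.53, 16.1 and 1479 CPM. The storage protein genes did not follow, with VSP2 at 9.03 CPM in the white plant, against 0.939, 9.78 and 74.2 CPM in the green ones, and VSP1 at 5.22 CPM, against 0, 1.95 and 41.3 CPM. In all, 8 of 10 members were below every green plant and more than 2-fold under the green median, as were 13.9% of all genes. VSP1 could not meet this rule, since its lowest green plant had 0 CPM.

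Beyond the 10, the white plant was also below all green plants in MYC2 (26.4 CPM, against 37.4 to 715.4), OPCL1 (10.4 CPM, against 53.4 to 1231) and CORI3 (8.34 CPM, against 191.2 to 654.5). The acyl-CoA oxidase gene ACX1, of the beta-oxidation step, was above them, at 204.1 CPM against 68.3 to 185.6. The receptor gene COI1 was within the green range, at 37.5 CPM. So were the desaturase genes FAD3 (71.1 CPM), FAD7 (175.3 CPM) and FAD8 (22.4 CPM), while LOX5 (0.858 CPM), LOX6 (22.1 CPM) and AOC4 (9.63 CPM) were below that range. Leaf markers summed to 6987 CPM, the lowest of all 53 plants, and floral markers to 29.02 CPM, with AP1 (4.70 CPM), AP3 (4.33), SEP3 (7.66) and AG (1.63) above every green plant of the line. The part of tissue composition in the white plant's values was not tested. With 1 white plant there is no test of the difference.

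**Figure D5:**
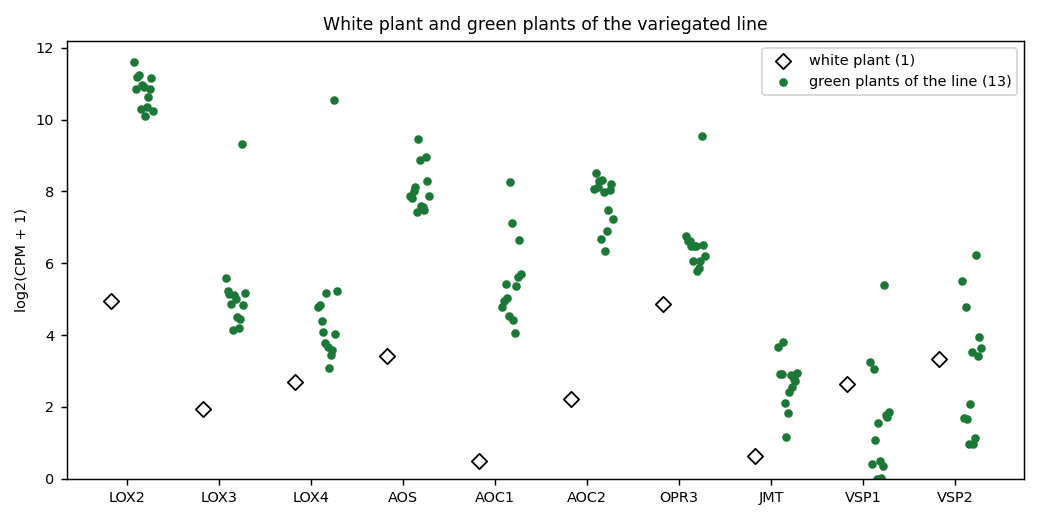
Level of the 10 genes in the white plant and in the 13 green plants of the variegated line, as log2(CPM + 1), with 1 point for each plant. The white plant lies below all green plants for 8 genes, LOX2 at 30.1 CPM against a green minimum of 1091, and inside their range for VSP1 and VSP2. The green minimum of VSP1 was 0 CPM, so no value could lie below it.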

How the data were processed

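Rosette leaves of 53 single plants were sequenced as poly(A)-selected, strand-specific mRNA libraries. The authors trimmed reads with Trim Galore and quantified them with Salmon against Araport11 transcripts, with the Col-CEN genome as decoy (versions not given in the sources used here), and deposited estimated counts per gene, of which 9.27% are not whole. These were rounded. The deposited tables of 3 DESeq2 comparisons hold a mean normalized count (a signal), used here to find which libraries the authors had tested, and their own fold changes and p-values, which were not used. From the signal columns, DMSO plant 2, short-internode relatives 1 and 2 and virescent relative 4 were found to be left out. Another library that the authors set aside was not identified.

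Levels are CPM with TMM factors over all 53 libraries. Contrasts were tested per line in edgeR 4.0.16 (R 4.3.3) with the quasi-likelihood F test, keeping genes with 10 or more normalized counts in 4 or more libraries, a prior count of 0.125, and Benjamini-Hochberg adjustment over all genes tested. Calls needed an adjusted p under 0.01 with an absolute log2 fold change over 1. The further tests (any difference among groups, and among M2 families within groups) and the differences between lines used all 53 libraries. The written design speaks of 8 replicated groups, and there are 9. Spread and correlations used log2(CPM + 1), and the white plant entered neither. Gene models and the bases before the start came from RefSeq (TAIR10.1), in which all 58 listed identifiers of the count table were matched.

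The 10 genes and all gene lists were chosen with earlier results of these data known. The text names the 10 members, listed genes that were called, and the 5 genes most correlated with LOX2, LOX3 and VSP2. Other genes named for the white plant and for the 4 plants with the highest LOX3 were chosen after their values were seen. Alternatives were DESeq2 1.42.0, other size factors, no filter, all labelled libraries, 1 fit over all plants, a replicate block, a pseudocount of 0.5 and leaving out single plants. Leaving out plant 2 of the green plants with variegated progeny as well, and the white plant, was added after seeing the data. On simulated counts with 100 genes changed per size, the tests called 65% of changes of 1.5 and 92% of changes of 3 on the log2 scale for the BR-like dwarf against DMSO. The shares were 69% and 82% for virescent plants against relatives, and 57% and 84% for green plants with against without variegated progeny. The changed genes were drawn from all genes tested. Most members vary more between plants than most genes, so these shares need not hold for them.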

Additional observations from a re-analysis of the deposited data

Results flagged for a closer look

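Within groups of 4 to 10 plants, the highest or lowest plant was compared with its neighbour by Dixon's ratio. Of 80 combinations of gene and group tested, 9 exceeded the critical value, where chance gives about 1 in 20.

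Short-internode relative 2 accounts for 5 of the 9. It was far above the other 3 relatives in LOX3 (3121 CPM, next plant 36.3), AOS (5021 CPM, next 192.8), AOC2 (3563 CPM, next 270.7), OPR3 (2485 CPM, next 91.1) and JMT (98.0 CPM, next 9.86). Virescent relative 4 stood apart in LOX4, with 404.7 CPM and 36.5 CPM in the next plant. BR-like dwarf relative 2 stood apart in LOX3, with 105.5 CPM and 32.4 CPM in the next. The storage protein genes gave the other 2, in different plants. VSP1 was at 71.0 CPM in BR-like dwarf plant 5, with 3.40 CPM in the next, and VSP2 was lowest in short-internode relative 1, at 1.99 CPM, with 20.4 CPM in the next. The causes of these values were not tested.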

How the results depend on the processing

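Of the counts of members called, 268 stayed the same under an alternative and 57 moved by more than 1.5 times. Of the values for single genes, 336 kept direction and side of the threshold, 33 lost it, 20 gained it and 10 changed sign. Causes of these changes were not tested.

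Members called in the BR-like dwarf numbered 2 against relatives with DESeq2, and against DMSO (1 in the edgeR fit of the line) 0 with the replicate block, 0 in 1 fit over all plants, 3 with DESeq2, and 0 to 1 over plants left out in turn. In the short-internode line they numbered 7 against relatives and 3 for relatives against DMSO in 1 fit over all plants. That fit includes short-internode relative 2, which the authors left out. For the dwarf against DMSO they numbered 2 with DESeq2 and 0 to 2 over plants left out. Virescent plants gave 1 against relatives with all labelled libraries, in 1 fit and with DESeq2. Against DMSO (1 in the line fit) they gave 0 with all labelled libraries, 0 with the replicate block, 0 in 1 fit, 2 with DESeq2 and 0 to 1 over plants left out. Green plants with against without variegated progeny (2) gave 1 with all labelled libraries, 0 with the replicate block, 1 in 1 fit, 0 with DESeq2 and 0 to 3 over plants left out. The counts in this paragraph stand without the share of all genes called under the same setting. They do not set the members against other genes.

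Over all plants, members differing among groups numbered 7, beside 43.6% of all genes. They numbered 4 without the libraries the authors left out (42.8%) and 3 also without plant 2 of the green plants with variegated progeny (40.8%). With the replicate block they numbered 2 (35.8%). Over plants left out they ranged from 4 (without short-internode relative 2, 45.6%) to 8 (without short-internode relative 1, 42.2%). Between families (0, beside 7.14% of all genes) the number was 1 without the left-out libraries (9.73%) and 1 also without that plant (13.4%). Over plants left out it was 0 to 1, with 1 without short-internode relative 2 (12.9%). Differences between lines (0) gave 1 with DESeq2 for BR-like minus short-internode dwarf, and 1 with DESeq2 and 0 to 1 over plants left out for virescent minus short-internode dwarf. The share of all genes under these alternatives is not given. Members above the 99th percentile of spread (5) numbered 3 without the left-out libraries and 3 also without that plant. The median r between synthesis and storage genes (0.19) was 0.33 in those 47 plants.

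Bringing back the libraries that the authors left out, short-internode relatives 1 and 2 and DMSO plant 2 together, turned signs. With all labelled libraries and in 1 fit, the change against relatives was -4.69 and -4.67 for LOX3 (0.31 without these) and -3.70 and -3.68 for LOX4 (0.62), and that of relatives against DMSO was 3.53 and 3.54 for LOX3 (-0.62) and 2.19 and 2.20 for OPR3 (-0.65). Between green plants with and without variegated progeny, LOX3 ranged from -0.09 to 3.51 and OPR3 from -0.28 to 2.30 over plants left out, both negative without plant 2.

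Plants with the same replicate number share just a number. The correlations of their deviations from group means lay between -0.396 and 0.621 over 7 pairs of groups, and in none did every pair exceed 0.1. In the BR-like line all 4 were positive (0.098 to 0.45), 3 were over 0.1, and 3 of 4 plants correlated best with their own number. For the short-internode dwarf and DMSO 3 of 6 did. The single calls against DMSO were both lost with the replicate block, and in 1 fit over all plants.

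Libraries held at least 29739361 counts, and depth limits VSP1, at 3 counts or fewer in 3 plants. Groups hold 2 to 10 plants, and DMSO plants serve every line. Phenotype and M2 family cannot be told apart.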
